A study of Mus musculus with 12 samples.

Results

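Aldh1a1 encodes a cytosolic aldehyde dehydrogenase that oxidises retinaldehyde to retinoic acid. It was 1 of 8127 genes that could be named in an array study of mouse granulosa cells, which line the ovarian follicle, nurse the egg and make steroid hormones. The gene was found by the number 11668 at the start of its probe identifier, read as an Entrez gene number. Among the named probes 1 reads it, so no second named probe was there to compare. Probes without a name were not searched for it. It was chosen by its measured signal differences between the 3 treatments, so its levels and differences are given as a description and carry no test.

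Primary granulosa cells came from immature mice aged 21 to 23 days, and 14 to 20 ovaries were pooled for a culture. Cultures were kept for 24 h with PBS (the vehicle), with activin A, or with activin A plus its antagonist follistatin. The labels give neither a strain nor a dose. Activin A is a secreted ligand related to transforming growth factor beta, and follistatin blocks it by binding it outside the cell. The experiment was done 4 times and supplied 1 array of each treatment each time, 12 arrays in all, on Illumina Sentrix Mouse-6 bead arrays.

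Retinol taken up by a cell is first oxidised to retinaldehyde by retinol dehydrogenases such as Rdh10, a step that several reductases run backwards. The enzymes of the Aldh1a group then make retinoic acid, which binds the nuclear receptors of the RAR group in pairs with RXR receptors and is broken down by enzymes of the Cyp26 group. In the ovary, retinoic acid is best known as the signal for germ cells to enter meiosis in the fetus. Aldh1a1 also oxidises other aldehydes, so its mRNA is not a measure of retinoic acid.

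Values are the authors' normalized signals on a log2-like scale, on which a difference of 1 is read as a 2-fold change. They run from 6.75 to 16.2, and array medians lay between 7.17 and 7.18. The highest mean of a control spot, 7.35, is called background here, and 29.4% of the 46084 tested probes were on average brighter. Of 18 granulosa markers 4 were measured, and all 4 were above background, among them the anti-Müllerian hormone receptor gene Amhr2 at 12.58 ± 0.42 (SD, n = 4) with PBS and the transcription factor Wt1 at 9.39 ± 0.32. Of the 7 measured macrophage markers 6 were at background, as were both red blood cell markers.

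Mouse Aldh1a1 lies on the plus strand at chr19:20492583-20643463 of build GRCm38.p6, and RefSeq lists a pair of transcription starts for it. Its close relative Aldh1a7 lies 49489 bases further along, on the minus strand, at chr19:20692953-20727556, and no named probe read it. The windows around these starts are shown to set the gene beside its paralog. Each holds 300 bases around a RefSeq start, on the strand of the gene. Capitals mark an octamer (ATGCAAAT), a CCAAT box (CCAAT), a Smad box (CAGAC) or a nuclear receptor half-site (AGGTCA), each searched on both strands.
Aldh1a1 first start, chr19:20492333-20492632, plus strand: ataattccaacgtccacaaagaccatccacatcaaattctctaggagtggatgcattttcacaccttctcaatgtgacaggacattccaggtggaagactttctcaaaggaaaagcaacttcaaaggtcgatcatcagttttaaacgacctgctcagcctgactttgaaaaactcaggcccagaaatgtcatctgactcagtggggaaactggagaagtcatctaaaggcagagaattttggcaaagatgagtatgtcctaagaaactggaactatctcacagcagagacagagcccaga
Aldh1a1 second start, chr19:20601718-20602017, plus strand: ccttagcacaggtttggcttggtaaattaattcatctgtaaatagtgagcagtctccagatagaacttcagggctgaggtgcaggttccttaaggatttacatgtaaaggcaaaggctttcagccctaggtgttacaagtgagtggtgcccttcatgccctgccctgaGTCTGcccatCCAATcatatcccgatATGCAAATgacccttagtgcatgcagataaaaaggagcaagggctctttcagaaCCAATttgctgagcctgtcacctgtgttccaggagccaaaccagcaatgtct
Aldh1a7 start, chr19:20727507-20727806, minus strand: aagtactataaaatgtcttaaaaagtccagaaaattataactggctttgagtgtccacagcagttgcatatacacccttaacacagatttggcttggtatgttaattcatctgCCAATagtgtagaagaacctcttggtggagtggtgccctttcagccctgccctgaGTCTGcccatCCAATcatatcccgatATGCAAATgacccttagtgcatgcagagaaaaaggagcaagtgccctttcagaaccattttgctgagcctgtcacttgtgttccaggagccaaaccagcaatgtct

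In a global alignment the second Aldh1a1 window and the Aldh1a7 window had the same base at 70.4% of positions, gapped positions included. For the first and second Aldh1a1 windows it was 49.1%. Unrelated windows were not aligned, so no level for them is at hand. The second window and the Aldh1a7 window both hold the octamer at position -56, a CCAAT box at -72 and a Smad box, on the other strand, at -82, with the RefSeq start counted as 0. The second window holds another CCAAT box at -2, and the Aldh1a7 window one at -137. No 2 of these motifs overlap. The first Aldh1a1 window holds none of the 4 motifs, and no window holds the receptor half-site in these exact letters. Variants of the half-site were not searched. Of all 32851 windows of this length, 1.74% hold the octamer, 37.4% a CCAAT box, 49.6% a Smad box and 16.3% the receptor half-site. A match describes these letters only. Whether the Aldh1a1 probe also reads Aldh1a7 transcripts was not tested, since the probe's own sequence was not used here.

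Aldh1a1 signal was lowest in every culture that received activin alone. With PBS it was 14.92, 14.49, 14.37 and 14.15 in experiments 1 to 4. With activin it was 13.06, 12.71, 12.75 and 12.08, and with activin plus follistatin 15.05, 14.51, 15.26 and 15.16. All 4 activin cultures lay below all 8 others, with a gap of 1.09 to the lowest PBS culture and of 1.45 to the lowest culture with follistatin. The lowest signal was still 4.74 above background. Every value stood 0.74 or more below the brightest probe of its own array. Whether signals this bright were compressed was not tested.

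**Figure D1:**
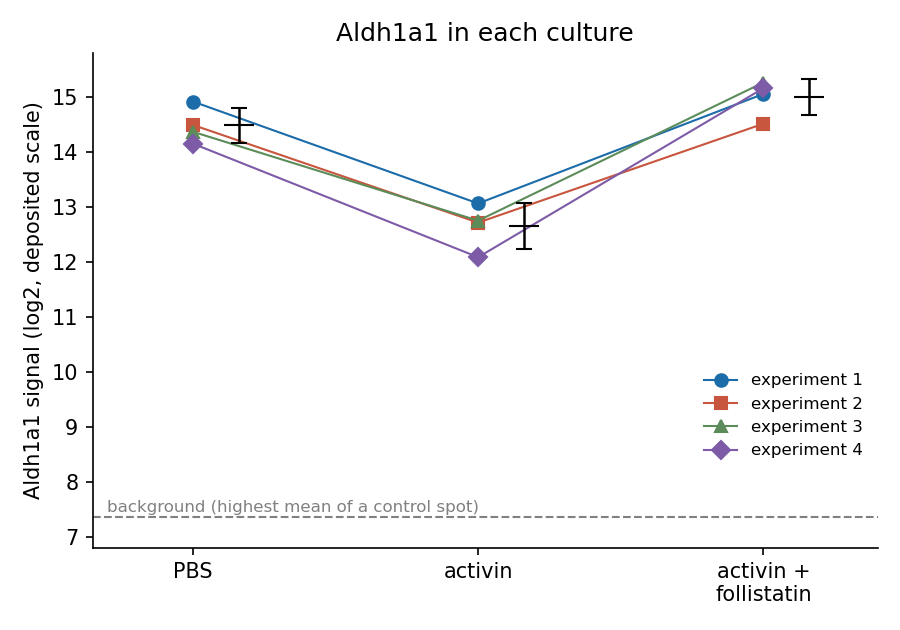
Aldh1a1 signal (log2, deposited scale) in each of the 12 cultures, by treatment, with lines joining the cultures of 1 experiment. Black marks are group means with SD (n = 4), and the dashed line is background at 7.35. The 4 activin cultures sit between 12.08 and 13.06, below all PBS and activin plus follistatin cultures.

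The group means were 14.48 ± 0.32 (SD, n = 4) with PBS, 12.65 ± 0.41 with activin and 15.00 ± 0.33 with activin plus follistatin. Activin minus PBS was -1.83 ± 0.22 (SE), which read as plain log2 leaves 28.1% of the PBS signal and is a 3.55-fold difference. Of the 8127 named genes, 4 had a lower value in this comparison. Activin plus follistatin minus PBS was 0.52 ± 0.22, or 143% of the PBS signal, and 35 named genes had a higher value. Activin minus activin plus follistatin was -2.35 ± 0.22, a 5.08-fold difference. The comparisons share arrays, so they are not independent of each other. Across all probes, 2.91%, 0.178% and 7.15% were called in these comparisons (limma, adjusted p below 0.05), and nothing is read from these shares for Aldh1a1, which was chosen on the same contrasts. In bulk RNA, fewer cells that carry a transcript and less of it per cell cannot be told apart.

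In order of level, activin plus follistatin came first, PBS second and activin last. The first and second overlapped: the PBS culture of experiment 1 was brighter than the follistatin culture of experiment 2, and 3 of the 4 follistatin cultures were above every PBS culture. Within experiments the fall with activin was even, at -1.85, -1.78, -1.62 and -2.07, with a mean of -1.83 ± 0.19 (SD, n = 4). As fold differences these are 3.62, 3.43, 3.07 and 4.19.

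The difference between activin plus follistatin and PBS was uneven. It was 0.14 and 0.02 in experiments 1 and 2 and 0.90 and 1.01 in experiments 3 and 4, with a mean of 0.52 ± 0.51 (SD, n = 4). Its sign was the same in all 4, but in the first and second experiments Aldh1a1 was nearly level with PBS. The experiments with the larger difference were those with the lower PBS values, which spanned 0.77 over the 4 experiments and enter the difference themselves. Leaving out experiment 4 gave a mean difference of 0.35, and leaving out experiment 2 gave 0.68.

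Fst, the gene of follistatin itself and a known activin target, gives a readout of activin action in the same cultures. Activin minus PBS for Fst was 3.06, 2.14, 2.20 and 2.67 in experiments 1 to 4, and activin plus follistatin minus PBS was -1.54, -1.54, -1.79 and -1.94. For Fst the SD of the second difference was 0.20, against 0.51 for Aldh1a1. In experiments 1 and 2, Fst was thus well below its PBS level in the cultures where Aldh1a1 was close to its own.

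**Figure D2:**
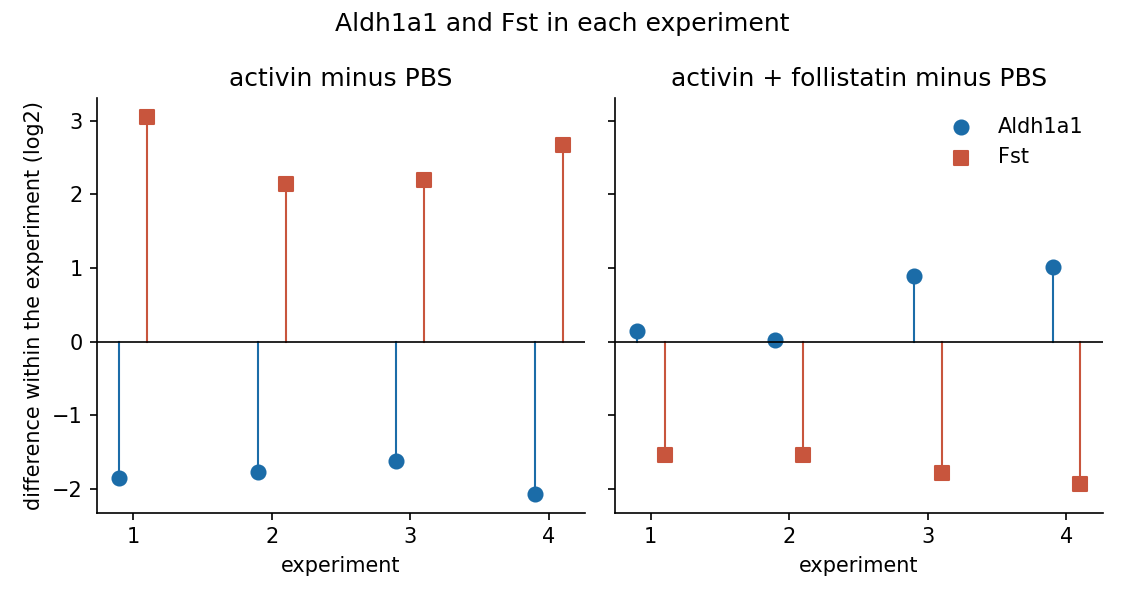
Differences within each experiment (log2) for Aldh1a1 (circles) and Fst (squares), activin minus PBS on the left and activin plus follistatin minus PBS on the right. Aldh1a1 lies between -2.07 and -1.62 on the left, and on the right it is near 0 in experiments 1 and 2 and at 0.90 and 1.01 in experiments 3 and 4.

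Treatment accounted for 91.3% of the variance of Aldh1a1 over the 12 arrays, experiment for 3.99% and the rest was 4.66%. Culture-to-culture spread was similar in the 3 groups, with ranges of 0.77 with PBS, 0.98 with activin and 0.75 with activin plus follistatin. The activin culture of experiment 4 was the dimmest of all.

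Which genes had a pattern over the 12 arrays most like that of Aldh1a1 was measured as a distance. Each gene was centred on its own mean, and the root mean square distance to Aldh1a1 was taken for the 3856 other named genes above background. The median distance was 1.06, close to the 1.05 of a gene that does not vary at all. The 6 nearest were Timp2 (0.327), an inhibitor of metalloproteinases, Cntnap2 (0.356), a neurexin-family adhesion protein, Slit2 (0.367), a secreted guidance ligand, Anxa1 (0.370), a phospholipid-binding protein, Gask1b (0.383) and the glutathione transferase Gstm2 (0.416). All 6 were lowest with activin and brightest with activin plus follistatin, as the choice by distance fixes.

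Timp2 differed from Aldh1a1 in how close its PBS cultures lay. They read 11.73, 11.72, 11.72 and 11.64. Its differences between activin plus follistatin and PBS were 0.35, 0.31, 0.63 and 0.87, and for it too the values of experiments 3 and 4 were the larger ones. Anxa1 showed 0.37, 0.57, 0.59 and 0.73, and Slit2 0.65, 0.46, 0.61 and 1.06. In Cntnap2 the 4 values lay between 0.78 and 1.14, and in Gask1b between 0.73 and 1.03, without the near-zero values that Aldh1a1 had in experiments 1 and 2. With the mean of each experiment removed first, Slit2 was the second nearest of all genes, Timp2 the third and Gstm2 the last of the 6, at rank 12.

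The 6 genes nearest to Aldh1a1 with the sign turned were Igf1 (distance 0.390), a growth factor of the follicle, Sh3kbp1 (0.400), an endocytic adaptor, Fam13a (0.405), Dock9 (0.415), an activator of the small GTPase Cdc42, Hsd11b2 (0.436), which inactivates glucocorticoids, and Loxl1 (0.445), a lysyl oxidase. Igf1 read 10.16, 10.29, 10.06 and 10.43 with PBS, 11.75, 11.40, 11.07 and 11.70 with activin, and 9.03, 9.58, 9.10 and 9.41 with activin plus follistatin. Its 3 groups did not overlap, unlike those of Aldh1a1. Loxl1 was the second nearest once experiment means were removed. These distances rank likeness of signal over 12 arrays and say nothing of shared control.

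**Figure D3:**
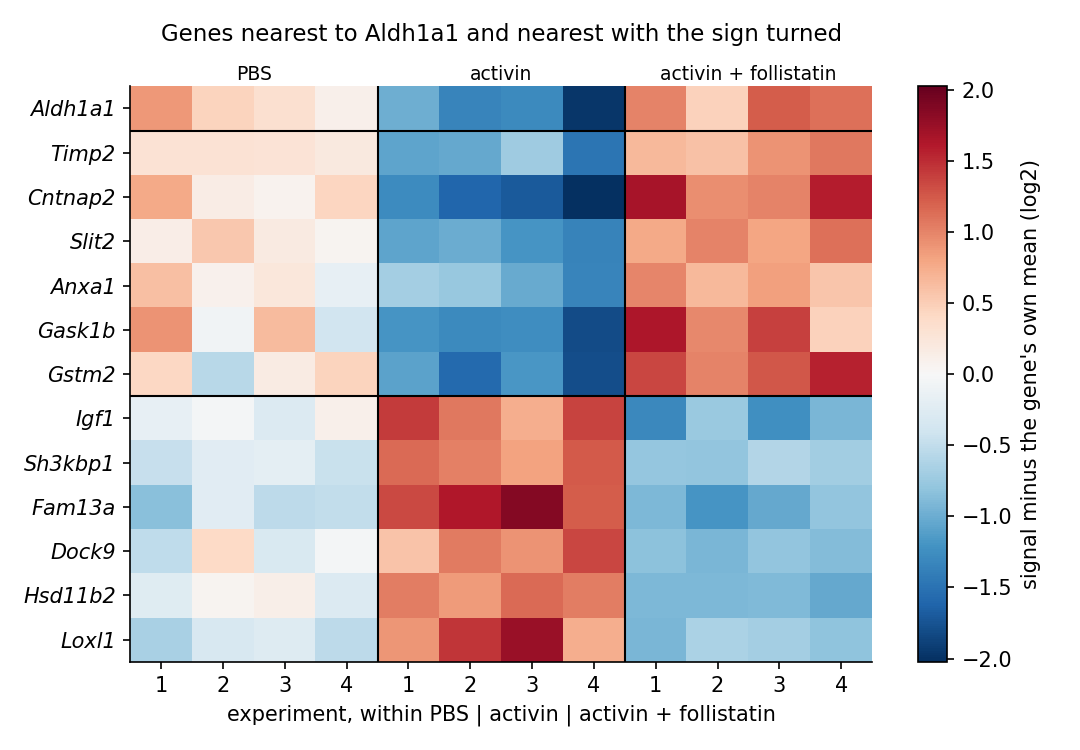
Signal of each gene minus its own mean (log2) in the 12 cultures, for Aldh1a1, the 6 genes nearest to it and the 6 nearest with the sign turned. Aldh1a1 and the 6 below it are blue with activin and red with activin plus follistatin, and the last 6 show the opposite colours.

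The rest of the retinoid pathway was read from a list of 91 genes other than Aldh1a1, of which 33 had a named probe and 17 a mean above background. Against PBS, activin lowered 1 of the 33 and raised none, where 2.14% of all named genes were lower and 2.85% higher. Activin plus follistatin raised 1 and lowered none, where 0.111% of named genes were higher and 0.148% lower. Between activin and activin plus follistatin, 5 of the 33 were lower with activin and none higher, where 6.42% of named genes were lower and 5.5% higher. With the experiment as a block, activin lowered 4 against PBS (named genes 5.2% lower, 5.41% higher) and activin plus follistatin raised 3 (named genes 1.21% higher, 0.96% lower). Between both treatments the block gave 5 lower and 1 higher with activin (named genes 9.91% lower, 8.95% higher). The median differences of the list, in the same order, were 0.0026, 0.04 and -0.02, beside 0.0018, 0.0070 and -0.0020 for all named genes.

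Among genes listed for retinol and retinaldehyde turnover, Rdh10 and Dhrs7 were lower with activin than with activin plus follistatin. Rdh10 makes the retinaldehyde that Aldh1a1 uses. Rdh10 read 8.27, 8.73, 8.51 and 8.24 with PBS, 7.86, 8.17, 7.83 and 7.96 with activin, and 8.49, 8.71, 8.68 and 8.26 with activin plus follistatin. Every activin culture lay below every other. Rdh10 was lower with activin than with activin plus follistatin by 0.58 on the log2 scale (SE 0.13, adjusted p = 0.0159, limma), a call that ended without the follistatin array of experiment 2 or 3 (adjusted p up to 0.0537) and without the whole of experiment 1 or 3 (up to 0.166). Its difference of -0.48 ± 0.13 from PBS did not pass (adjusted p = 0.0813, limma) and passed with the block (adjusted p = 0.00392).

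Dhrs7 belongs to the short-chain dehydrogenases and reductases, a family that includes retinol dehydrogenases. Dhrs7 read 11.58, 10.88, 11.41 and 11.06 with PBS, 10.65, 10.55, 10.84 and 10.58 with activin, and 12.18, 11.65, 11.999 and 11.39 with activin plus follistatin. All activin cultures lay below all others, and the other groups overlapped. Activin minus activin plus follistatin was -1.15 ± 0.18 (SE, adjusted p = 0.00180, limma). The differences from PBS, -0.58 ± 0.18 and 0.57 ± 0.18, passed only with the block (adjusted p = 0.00762 and 0.0288, limma). Its difference between activin plus follistatin and PBS was largest in experiment 2, at 0.77, and smallest in experiment 4, at 0.34, whereas Aldh1a1 had its smallest value in experiment 2 and its largest in experiment 4.

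The other 7 measured genes of retinol and retinaldehyde turnover did not pass in any comparison. Akr1b10, an aldo-keto reductase whose human namesake reduces retinaldehyde, came closest, with -0.34 between activin and activin plus follistatin (adjusted p = 0.0869, limma). Akr1b3, a reductase of sugars and aldehydes, was at 0.25 ± 0.19 and 0.21 ± 0.19 relative to PBS. Dhrs9, Rdh1 and Rdh16 were at background.

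Other genes that make, carry or store retinoids gave little signal. Of the retinoic acid synthesis list, Aldh8a1 was the other gene with a named probe and was at background. The Aldh1a2, Aldh1a3 and Aldh1a7 genes and the 4 breakdown enzymes of the list had no named probe. Probes without a name were not searched for them. A change in another source or in the removal of retinoic acid was therefore not read here. The storage enzyme Lrat and the fatty acid binding protein Fabp5, which carries retinoic acid, were at background.

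Among nuclear receptors, Rxrb, an RXR receptor, was expressed at 10.72 ± 0.16 (SD, n = 4) with PBS and differed by 0.12 ± 0.07 (SE) with activin and 0.07 ± 0.07 with activin plus follistatin, neither past the test. Rara and Rxra were at background. Rorb encodes an orphan receptor that shares sequence with retinoid receptors but is not known as a receptor of retinoic acid in the way of the RAR group. Rorb read 7.67, 7.49, 7.46 and 7.56 with PBS, 7.27, 7.37, 7.27 and 7.19 with activin, and 8.23, 8.20, 8.02 and 8.05 with activin plus follistatin. Its 3 groups did not overlap.

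Rorb fell by 0.27 on the log2 scale with activin (SE 0.06, adjusted p = 0.0353, limma) and rose by 0.58 with activin plus follistatin relative to PBS (SE 0.06, adjusted p = 0.00209). The first call ended without the PBS array of experiment 1 or 4 or the activin array of experiment 1, 3 or 4 (adjusted p up to 0.0942) or without any 1 of the 4 experiments (up to 0.189), and the second without the whole of experiment 2 (adjusted p = 0.0534). With activin Rorb was at 7.28, below the background level. Rora was at 0.56 ± 0.25 with activin and did not pass.

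Of 9 measured cofactors, only Hdac3, a histone deacetylase of the NCoR corepressor complex, passed. It did so between activin and activin plus follistatin, where 6.42% of all named genes were lower and 5.5% higher. Hdac3 read 11.21, 10.95, 10.95 and 11.02 with PBS, 10.83, 10.82, 10.89 and 10.79 with activin, and 11.16, 11.17, 11.31 and 11.05 with activin plus follistatin. All activin cultures lay below all others. Hdac3 was lower with activin than with activin plus follistatin by 0.34 on the log2 scale (SE 0.06, adjusted p = 0.00563, limma), a call that ended without experiment 2 (adjusted p = 0.0598). Its differences from PBS did not pass. The corepressor gene Ncor1 and the coactivator gene Ncoa1 differed from PBS by less than 0.1 in either treatment.

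Of 31 genes listed as responsive to retinoic acid, 6 were measured. Without the block 0 passed in any comparison (limma, with 0, 1 and 0 at an unadjusted p below 0.05 in the 3 comparisons). Over all probes 2.91%, 0.178% and 7.15% passed. With 6 genes a count of 0 is near those shares, so nothing is read from it about retinoic acid response. Only Rai1 and Rai2 were above background. Rai2 read 7.92, 8.67, 8.18 and 8.74 with PBS, 8.05, 8.95, 8.45 and 9.36 with activin, and 7.97, 8.36, 8.18 and 8.85 with activin plus follistatin. Its groups overlapped. With the block, activin minus activin plus follistatin passed for Rai2 (0.36, adjusted p = 0.0222, limma; 0.669 without it). The well-known targets Cyp26a1, Rarb and Stra6 had no named probe.

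**Figure D4:**
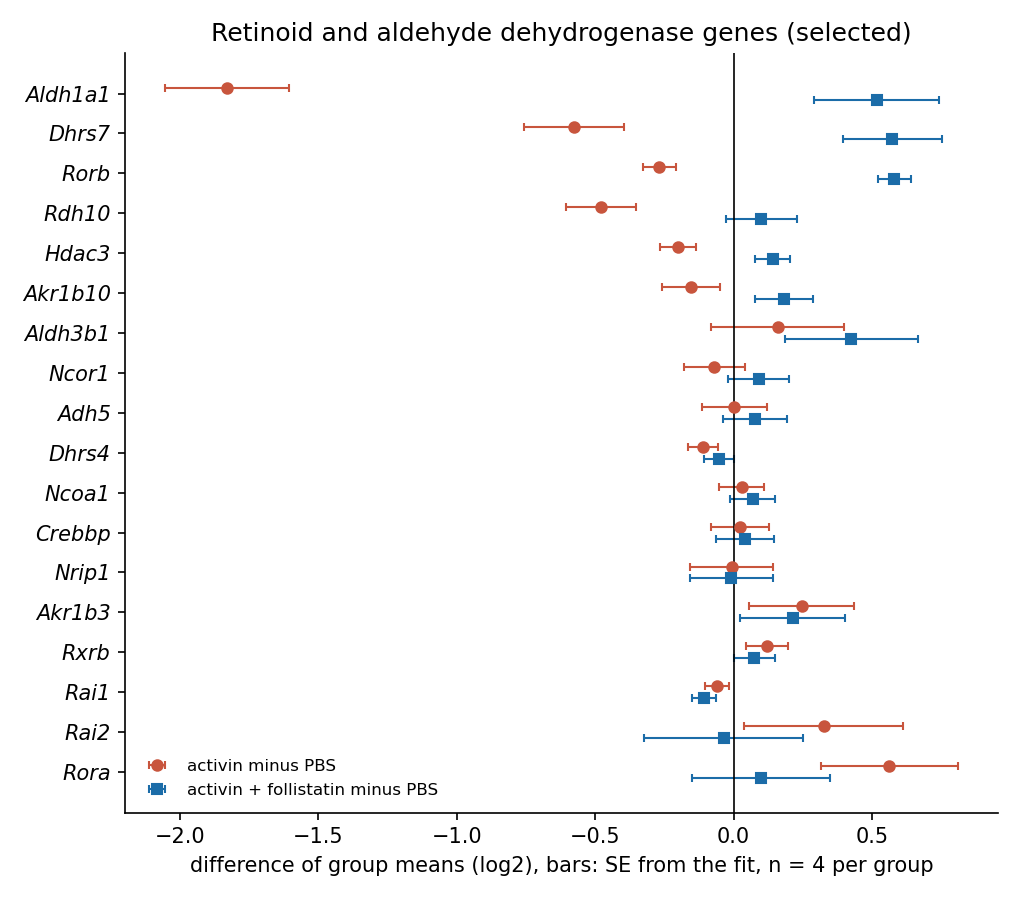
Differences of group means from PBS (log2) with SE for Aldh1a1 and other retinoid and aldehyde dehydrogenase genes above background, with activin (circles) and with activin plus follistatin (squares). Aldh1a1 at -1.83 lies far to the left of the other genes shown, whose activin values lie between -0.58 and 0.56.

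Of 16 other aldehyde dehydrogenases, Aldh3b1 and Aldh8a1 were measured, and neither passed in any comparison without the block (limma, with 0 at an unadjusted p below 0.05). Over all probes 2.91%, 0.178% and 7.15% passed in the 3 comparisons, so nothing is read from this count. Aldh3b1 acts on aldehydes from lipids. Aldh3b1 read 10.26, 9.95, 10.67 and 9.78 with PBS, 10.41, 10.28, 10.79 and 9.82 with activin, and 10.63, 10.60, 10.996 and 10.13 with activin plus follistatin. The groups overlapped. It was higher with activin plus follistatin than with PBS in each experiment, by 0.42 ± 0.24 (SE, adjusted p = 0.786, limma), and passed with the block (adjusted p = 0.00493). With the block it was also lower with activin than with activin plus follistatin (adjusted p = 0.00741). Unlike Aldh1a1, it was not lower with activin than with PBS in any experiment.

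Markers of other ovarian cells were read beside these results. Of 20 theca and stroma markers 12 were measured and 5 were above background. The theca hormone gene Insl3 and the luteinizing hormone receptor Lhcgr, which theca cells express, were at background, and so were Hhip, Ptch1, Col1a2 and Nr2f2. The log2 of the summed signal of the 12 was 11.11 to 11.96 with PBS, 10.94 to 11.003 with activin and 11.43 to 12.50 with activin plus follistatin. The activin cultures lay below the others in this sum. Without Dcn, left out after its values were seen, the sum of the other 11 was 10.83 to 10.97 with PBS, 10.76 to 10.83 with activin and 10.87 to 11.015 with activin plus follistatin. The activin cultures just reached the PBS cultures and lay below all cultures with follistatin. Within each experiment this sum was still lower with activin than with PBS.

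The brightest of these markers was Dcn, a matrix proteoglycan made by many mesenchymal cells. Dcn read 9.93, 8.72, 8.61 and 11.004 with PBS, 8.14, 7.59, 7.61 and 7.86 with activin, and 10.69, 10.17, 9.72 and 11.87 with activin plus follistatin. Its activin cultures lay below all others. It was lower with activin than with activin plus follistatin by 2.81 on the log2 scale (SE 0.54, adjusted p = 0.00662, limma), and against PBS, by 1.77, it passed with the block only (adjusted p = 0.00668). The PBS value of Dcn was highest in experiment 4, where that of Aldh1a1 was lowest. The collagen gene Col3a1 was lower with activin than with PBS by 0.73 on the log2 scale (SE 0.12, adjusted p = 0.00654, limma). Col3a1 was the 1 marker of the list called in that comparison without the block, where 2.14% of all named genes were lower. The other 3 markers above background were not called lower. Gli2, a transcription factor of hedgehog signalling, differed by 0.20 ± 0.10 (SE) from PBS and by 0.23 ± 0.10 from activin plus follistatin, higher with activin, and both passed with the block only (adjusted p = 0.0443 and 0.0134, limma). Col1a1 and Mgp differed from PBS with activin by -0.02 each. The part of such cells in the Aldh1a1 values was not tested. The 4 granulosa markers include Fst, which differs with the treatments. Their summed signal was 14.62 to 15.02 with PBS, 14.89 to 15.38 with activin and 14.67 to 15.00 with activin plus follistatin. Without Fst the sum of the other 3 was 14.54 to 14.96 with PBS, 14.39 to 15.14 with activin and 14.65 to 14.99 with activin plus follistatin, and the groups overlapped. In experiments 1, 2 and 4 this sum was lower with activin than with PBS, and in experiment 3 higher. Its brightest member was Greb1, at 14.33 with PBS, 14.20 with activin and 14.31 with activin plus follistatin. With PBS, Amhr2 was at 12.58 and Wt1 at 9.39, so the sum mainly reads Greb1 and is not a readout of several markers. Among the 4 granulosa markers, Wt1 was lower with activin than with activin plus follistatin by 0.73 on the log2 scale with the block only (adjusted p = 2.1e-04, limma, and 0.0792 without it).

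Summed endothelial markers were 9.28 to 9.47 with PBS, 9.31 to 9.42 with activin and 9.48 to 9.57 with activin plus follistatin, with Pecam1 and Emcn at background. The endothelial guidance receptor gene Robo4 read 7.08 to 7.15 with activin, below all other cultures. It differed between activin and activin plus follistatin by -0.80 ± 0.10 (SE, adjusted p = 2.9e-04, limma). Egfl7, a secreted endothelial factor and the other marker of the set above background, differed the other way, by 0.17 ± 0.06 from PBS and 0.19 ± 0.06 from activin plus follistatin, and did not pass (adjusted p = 0.182 and 0.0685, limma). Summed macrophage markers lay between 9.85 and 10.06 in all 12 cultures, and those of red blood cells between 8.16 and 8.27. Of the 7 measured macrophage markers only 1 was above background, Lyz2 at a mean of 7.37, and of the 2 red blood cell markers 0. Sums of probes at background mainly reflect how many probes are added. Neither sum can therefore show whether such cells were there or changed with treatment. Surface epithelium markers, led by the keratin gene Krt8, lay between 9.95 and 10.57, smooth muscle markers between 8.26 and 9.12 and oocyte markers between 8.12 and 8.98. In each of these 6 sets the activin cultures overlapped the PBS cultures. For macrophages and red blood cells nothing is read from this overlap, and in the other sets markers at background also damp changes of the sum. In the endothelial set the cultures with activin plus follistatin lay above all others.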

How the data were processed

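RNA (100 ng per culture) was amplified, labelled with Cy3 and hybridized to Illumina Sentrix Mouse-6 arrays, per the labels and design text. The authors deposited log2 or similar values, normalized between arrays by a method not given in the sources used here. The submitters' processing notes name lumi 1.2.0 without its role. Whether background was subtracted was not established here, and differences near 7.35 may be understated. The number of arrays limits the precision.

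Of 46116 probes, 32 control spots were left out. Probes were named where their number is an Entrez gene number in the RefSeq table of GRCm38.p6 (82.6% of 11897 numbers; 46.0% after adding 1 to each). This named 9832 probes of 8127 genes, and the brightest probe stood for the gene.

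One limma fit (3.58.1, R 4.3.3) of 3 group means over 12 arrays used all 46084 probes, with Benjamini-Hochberg adjustment, 2-sided, threshold 0.05. It was tested on simulated data. Experiment numbers pair the arrays, per the design text: after removal of group means, r over 13560 probes was 0.335 to 0.805 in the 12 same-number pairs and -0.635 to 0.407 in others. Blocked values stand beside calls that they change. Alternatives were a fixed or random block, quantile normalization, median centring, a filter on dim probes, the mean of all probes, background subtraction, and each array or experiment left out. Named were Aldh1a1, measured members of the retinoid and aldehyde dehydrogenase lists, the 6 nearest genes in each direction, and the brightest and called markers. Markers at background and genes without a named probe were added to the text after the results were seen. Promoter windows are from RefSeq, aligned with Biopython 1.88. The gene and the lists were chosen with earlier results of these data known. Some measured list members count in the totals but are not reported here by name.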

Additional observations from a re-analysis of the deposited data

Results flagged for a closer look

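The spread within groups of 4 cultures was checked for Aldh1a1, the retinoid and aldehyde dehydrogenase genes called in any fit and the 12 genes nearest to Aldh1a1 in either direction, 60 groups of 20 genes in all. A culture stood apart where its gap to the next one was above the critical value of Dixon's test as a share of the range of its group. This held for 2 groups, both in experiment 4, and chance gives about 1 in 20 groups. Gask1b read 10.2 in the activin culture of experiment 4, below the other 3 activin cultures, with a gap of 0.836 of the range. Hsd11b2 read 7.15 in the activin plus follistatin culture of experiment 4, with a gap of 0.916 of the range, and all 4 of its values in that group were below the background level. No culture stood apart in this way for Aldh1a1.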

How the results depend on the processing

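The 3 differences of Aldh1a1 kept their sign and moved by less than the spread between cultures under each alternative run. Leaving out 1 array gave -1.97 to -1.64 for activin minus PBS, 0.41 to 0.68 for activin plus follistatin minus PBS and -2.51 to -2.16 for activin minus activin plus follistatin. Leaving out a whole experiment gave -1.90 to -1.75, 0.35 to 0.68 and -2.53 to -2.10. With the replicate block the SE of Aldh1a1 was 0.18 instead of 0.22. Call counts, in the order activin versus PBS, activin plus follistatin versus PBS and activin versus activin plus follistatin, moved more. The fit without a block called 1342, 82 and 3296 probes. The replicate block called 2820, 557 and 5087, and of the pathway list 4 genes in the first and 3 in the second comparison instead of 1 each. It called 1 other aldehyde dehydrogenase in each comparison with activin plus follistatin instead of 0 (at an unadjusted p below 0.05 without the block, 0). The random block called 132 probes in the second comparison and 3 pathway genes in the first, and the filter on dim probes 130 and 3. Leaving out 1 array gave 888 to 1356, 47 to 107 and 2652 to 3268 probes and 0 to 2, 1 and 4 to 6 pathway genes. Leaving out an experiment gave 625 to 994, 24 to 54 and 2091 to 2642 probes and 0 to 1, 0 to 1 and 4 to 5 pathway genes. The counts of 888 and 47 arose on leaving out PBS 3 and on leaving out either PBS 2 or activin plus follistatin 3. Apart from the fewer arrays or probes tested, the cause of these shifts was not tested. The replicate block also called Wt1 and Robo4 lower with activin than with PBS, and Robo4 higher with activin plus follistatin than with PBS. Of the other pathway genes and markers named here it changed no call beyond those given beside the results. Near background, changes may be missed.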
